A study of Mus musculus with 6 samples.

Results

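Fatty acid uptake and binding in the mouse liver was described here through 10 genes, chosen by gene symbol: *Lpl*, *Vldlr*, *Cd36*, *Slc27a1*, *Slc27a2*, *Slc27a4*, *Fabp1*, *Fabp2*, *Fabp4* and *Fabp5*. They are 10 of the 49671 genes in the count table, and all 10 were among the 16089 genes with enough counts to be tested. RNA-seq had been run on whole liver, with 3 samples from SHMT2 fl/fl mice and 3 samples from SHMT2 HKO mice. SHMT2 fl/fl mice carry loxP sites around a block of exons of *Shmt2*, the mitochondrial serine hydroxymethyltransferase gene, on the C57BL/6J background. SHMT2 HKO mice carry the same floxed alleles together with Albumin-Cre, which was used to target hepatocytes. The paper proposes that SHMT2 expression in the non-parenchymal cells of the liver was left unaffected. The study's standard protocol used male mice and harvested tissue after a short fast. Both groups received AMLN diet, an obesogenic feed with added fat, fructose and cholesterol, beginning at the age of 4 weeks. Feeding lasted 18 weeks, the livers were taken at 22 weeks, and no chow-fed liver is part of the comparison. The comparison asks how hepatocyte loss of SHMT2 changes liver gene expression on this diet.

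Fatty acids reach hepatocytes as free acids from adipose tissue, inside lipoproteins, or after lipases have released them from lipoprotein triacylglycerol at the vessel wall. CD36 and the fatty acid transport proteins of the SLC27 family carry them into the cell or trap them there as acyl-CoA, and the small cytosolic fatty acid-binding proteins (FABPs) bind them and move them to membranes, lipid droplets, mitochondria and the nucleus. Healthy hepatocytes depend mainly on FABP1, SLC27A2 and SLC27A5, whereas LPL and FABP4 are best known from adipose tissue, muscle, capillaries and macrophages, and CD36 and VLDLR are low in the lean liver and rise in many forms of fatty liver.

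Values are CPM, a gene's count brought to a common library size, with library sizes scaled by TMM, a method that sets the typical gene to no change. Fold changes, standard errors (SE) and adjusted p-values come from the quasi-likelihood test of edgeR, adjusted by Benjamini-Hochberg over 16089 genes, and a gene was called changed at an adjusted p under 0.05. Gene counts ranged from 23090837 to 34089722 per library, where 3 counts equal 0.0734 to 0.152 CPM. The labels do not state that the libraries came from separate animals or litters, so p-values measure the spread between these samples. For brevity, each library is called a liver. *Shmt2* itself stood at 94.6, 109 and 93.9 CPM in SHMT2 fl/fl replicates 1, 2 and 3 and at 24.9, 28.3 and 19.3 CPM in the SHMT2 HKO replicates, with a log2 fold change of -2.04 (SE 0.16, edgeR adjusted p = 0.000639). The genotypes did not overlap, and the remaining *Shmt2* reads can come from exons outside the floxed block and from other cells. SHMT2 HKO replicate 1 stood apart in adipocyte markers, with *Adipoq* at 2.67 CPM and *Plin1* at 4.24 CPM against at most 0.104 and 0.130 CPM in the other 5 libraries, so each of the 10 genes that was called is also given without it.

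Of the 10 genes, 4 rose in SHMT2 HKO livers (*Fabp1*, *Fabp2*, *Fabp5* and *Slc27a2*), 2 fell (*Lpl* and *Slc27a1*) and 4 did not pass the test (*Cd36*, *Slc27a4*, *Fabp4* and *Vldlr*). Across all genes tested, 12.5% were called higher and 16.5% lower. The groups did not overlap for the same 4 raised and 2 lowered genes, against 21.9% of all genes that lay wholly higher and 25% that lay wholly lower. The median log2 fold change was 0.43 over the 10 genes and 0.03 over all genes tested. When libraries were instead scaled to the ERCC spike-in RNAs, which moved the median of all genes by -0.72, only *Lpl* and *Slc27a1* passed the test and none of the 10 was called higher.

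**Figure D1:**
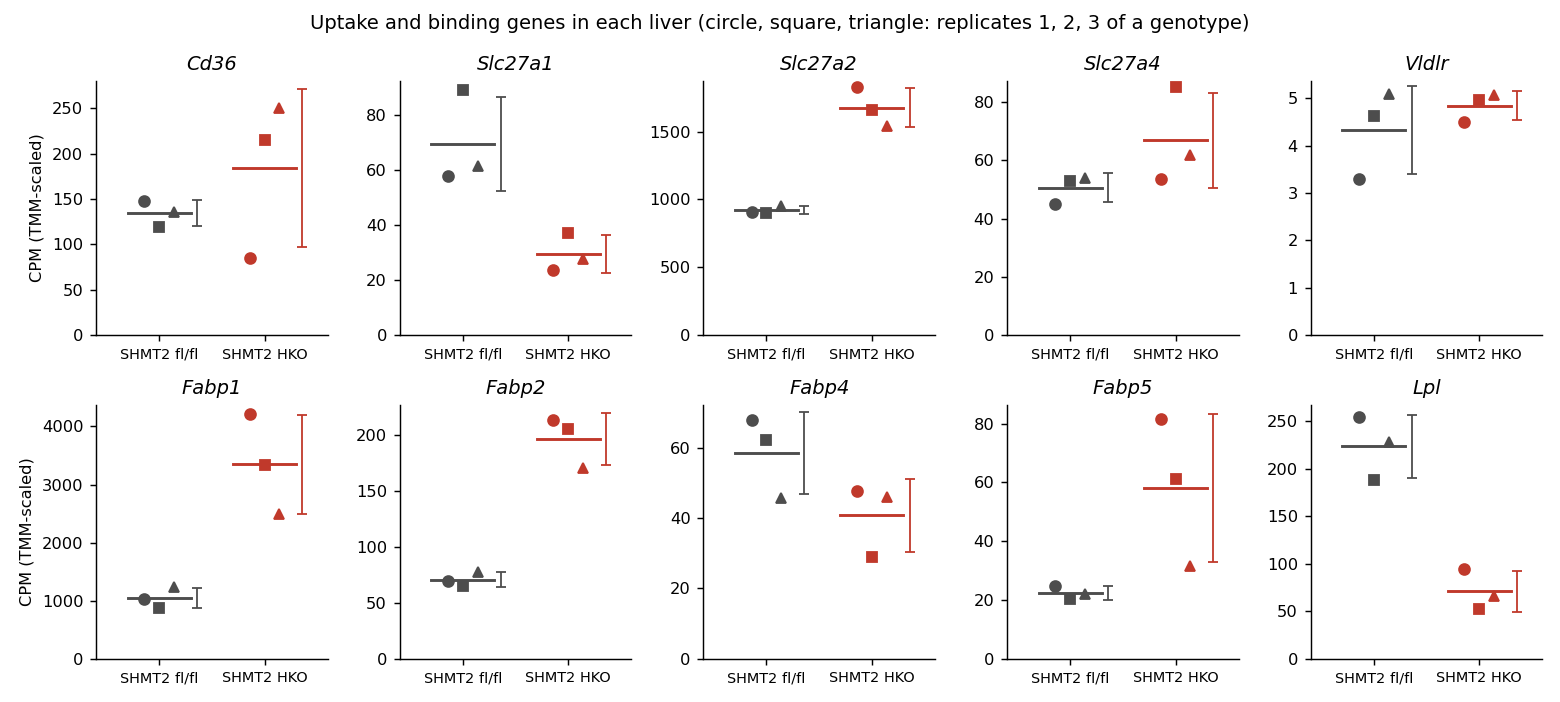
Expression of the 10 genes in each liver, in CPM on a linear axis from 0, with SHMT2 fl/fl in grey and SHMT2 HKO in red; symbols mark replicates 1, 2 and 3, horizontal lines the group means and side bars the SD (n = 3). *Fabp1*, *Fabp2*, *Fabp5* and *Slc27a2* lie wholly higher and *Slc27a1* and *Lpl* wholly lower in SHMT2 HKO, while SHMT2 HKO replicate 1 falls below every SHMT2 fl/fl liver for *Cd36*.

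Lipoprotein lipase, encoded by *Lpl* (GRCm38 chr8:68880491-68907448, plus strand), hydrolyses the triacylglycerol of chylomicrons and VLDL. It stood at 254, 188 and 228 CPM in the 3 SHMT2 fl/fl livers and at 94.6, 52.6 and 65.9 CPM in the 3 SHMT2 HKO livers. The highest SHMT2 HKO value lay below the lowest SHMT2 fl/fl value by a wide margin. The level fell 3.14-fold (log2 fold change -1.65, SE 0.23, edgeR adjusted p = 0.00223), and without SHMT2 HKO replicate 1 the log2 fold change was -1.91 (edgeR adjusted p = 0.000576). *Lpl* was lower under every alternative tried, with log2 fold changes from -2.43 to -1.48 and adjusted p-values of at most 0.0136.

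*Vldlr*, the receptor that takes up triacylglycerol-rich lipoproteins and works next to LPL, was the least expressed of the 10 genes. Its values were 3.30, 4.63 and 5.09 CPM in SHMT2 fl/fl and 4.50, 4.96 and 5.08 CPM in SHMT2 HKO. The SHMT2 HKO values lay inside the SHMT2 fl/fl range. The log2 fold change was 0.16 with a 95% interval from -0.35 to 0.67 (edgeR adjusted p = 0.624), so no difference was detectable, and its sign turned with ERCC scaling, on plain library size and without SHMT2 fl/fl replicate 1.

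LPL acts with partners that fold it, hold it and switch it, and 4 of the 9 tested from that list rose and none fell, with a median log2 fold change of 0.72. Over all genes tested, 12.5% were called higher and 16.5% lower. *Lmf1* and *Sel1l*, whose products help LPL to fold and leave the endoplasmic reticulum, had log2 fold changes of 0.84 (SE 0.16) and 0.72 (SE 0.11). *Apoc3*, which encodes a secreted inhibitor of LPL, had a log2 fold change of 1.16 (SE 0.28), and *Apoa5*, which encodes an activator, had 0.76 (SE 0.24). These 4 had edgeR adjusted p-values between 0.00371 and 0.0445, none was called with ERCC scaling, and *Sel1l* turned to -0.03 there. On plain library size *Lmf1*, *Sel1l* and *Apoa5* were not called either (edgeR adjusted p = 0.0568, 0.0797 and 0.232). *Apoc3* and *Apoa5* lost the call when any SHMT2 fl/fl replicate or SHMT2 HKO replicate 2 was left out (edgeR adjusted p up to 0.0698 and 0.153). *Gpihbp1*, the endothelial anchor that carries LPL to the capillary surface, did not pass the test at a log2 fold change of -0.11 (95% interval -0.42 to 0.19, edgeR adjusted p = 0.556). The fasting-induced inhibitor *Angptl4* was at 0.58 (edgeR adjusted p = 0.133, and 0.0171 without SHMT2 HKO replicate 1) and *Angptl8* at 0.04 (edgeR adjusted p = 0.928). Within each library the log2 ratio of *Lpl* to *Gpihbp1* counts averaged 3.16 ± 0.391 (SD, n = 3) in SHMT2 fl/fl and 1.59 ± 0.501 (SD, n = 3) in SHMT2 HKO. These ratios did not overlap (p = 0.1 by a two-sided exact permutation test, which is the lowest p that 3 samples against 3 can reach, and 0.2 after Benjamini-Hochberg adjustment over the 10 ratios compared here).

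*Lpl* is expressed in macrophages, stellate cells and other non-parenchymal cells as well as in fat, and markers of those cells also moved between the genotypes. The 5 lipid-associated macrophage markers summed to 1064 to 1168 CPM in SHMT2 fl/fl and 154 to 409 CPM in SHMT2 HKO. Most of that sum was *Spp1*, with means of 871 and 142 CPM. Of the 5, 3 fell (*Trem2*, *Spp1* and *Cd9*). *Gpnmb* and *Lgals3* overlapped between genotypes and were not called (edgeR adjusted p = 0.369 and 0.325). *Lgals3* in SHMT2 HKO replicate 3, at 66.8 CPM, lay above every SHMT2 fl/fl liver. The 7 stellate cell and fibroblast markers summed to 1203 to 1285 CPM and 321 to 807 CPM, with 4 lower and 1 higher. *Col1a1*, *Col3a1* and *Dcn* made up most of this sum, with SHMT2 fl/fl means of 382, 454 and 263 CPM. *Col1a1*, *Col3a1*, *Pdgfrb* and *Des* fell, while *Reln* rose from a mean of 30.7 to 60.1 CPM (edgeR adjusted p = 0.0105). *Lrat* (means of 20.9 and 21.3 CPM, log2 fold change 0.03) and *Dcn* (log2 fold change -0.60) overlapped between genotypes and were not called. The 7 markers of the macrophage list summed to 173 to 222 CPM and 209 to 289 CPM, but they went different ways. *Clec4f*, *Vsig4* and *Timd4* rose, and *Clec4f* alone went from a mean of 15.5 CPM to 111 CPM. *Cd68* and *Csf1r* fell, and *Adgre1* also lay wholly lower in SHMT2 HKO, though it was not called (edgeR adjusted p = 0.0588). The log2 ratio of *Lpl* to *Adgre1*, the macrophage gene for F4/80, was 2.95, 3.03 and 2.93 in SHMT2 fl/fl and 3.04, 1.54 and 1.54 in SHMT2 HKO. SHMT2 HKO replicate 1 therefore had the ratio of the SHMT2 fl/fl livers and the other two lay lower (exact permutation test, two-sided, p = 0.4). In bulk RNA, fewer cells of a type and less RNA per cell cannot be told apart, and the part of these cells in the lower *Lpl* level was not tested.

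CD36 is a membrane receptor that speeds the entry of long-chain fatty acids. *Cd36* (chr5:17781690-17888801, minus strand) stood at 148, 119 and 136 CPM in SHMT2 fl/fl and at 85.4, 215 and 251 CPM in SHMT2 HKO. Replicates 2 and 3 of SHMT2 HKO lay above every SHMT2 fl/fl liver and replicate 1 below every one. The log2 fold change was 0.45 with a 95% interval from -0.35 to 1.25 and the difference did not pass the test (edgeR adjusted p = 0.368). Without SHMT2 HKO replicate 1 it was 0.80 and passed (edgeR adjusted p = 0.00562), and with ERCC scaling of all 6 libraries it was -0.10 (edgeR adjusted p = 0.867). The pattern of replicates 2 and 3 above every SHMT2 fl/fl liver and replicate 1 not was seen in 4.86% of all genes tested and in 2 of these 10, *Cd36* and *Slc27a4*.

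The SLC27 transporters split by member. *Slc27a2*, which encodes the very long-chain acyl-CoA synthetase and transporter FATP2 of the liver, stood at 904, 900 and 954 CPM in SHMT2 fl/fl and 1826, 1658 and 1542 CPM in SHMT2 HKO. The groups were far apart relative to their spread. It rose 1.82-fold (log2 fold change 0.87, SE 0.16, edgeR adjusted p = 0.00589; 0.80 and 0.00778 without SHMT2 HKO replicate 1), and with ERCC scaling its log2 fold change was 0.12 and not called. An antisense gene, *Gm26697*, overlaps 419 bp of its exons, and that gene's counts came to at most 0.0733% of the counts of *Slc27a2*.

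*Slc27a1* (FATP1, GRCm38 chr8:71568882-71587302, plus strand), the transporter best known from muscle and fat, went the other way. It stood at 57.9, 88.9 and 61.3 CPM in SHMT2 fl/fl and at 23.6, 37.1 and 27.5 CPM in SHMT2 HKO. All SHMT2 HKO values lay below all SHMT2 fl/fl values. It fell 2.36-fold (log2 fold change -1.24, SE 0.22, edgeR adjusted p = 0.00545; -1.10 and 0.00675 without SHMT2 HKO replicate 1) and stayed lower under every scaling tried, at -1.93 with ERCC scaling. *Slc27a4* (FATP4) stood at 45.0, 53.0 and 53.9 CPM in SHMT2 fl/fl and 53.7, 85.2 and 61.6 CPM in SHMT2 HKO. Replicate 1 of SHMT2 HKO lay within the SHMT2 fl/fl range while the other two lay higher. Its log2 fold change of 0.40 (95% interval -0.01 to 0.81) did not pass (edgeR adjusted p = 0.13), reached 0.54 (edgeR adjusted p = 0.0376) without SHMT2 HKO replicate 1 and turned to -0.33 with ERCC scaling and -0.03 on plain library size.

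Of the 3 SLC27 genes outside the 10, *Slc27a5*, the hepatocyte transporter and bile acid-CoA ligase, rose from 346 ± 37.8 CPM to 852 ± 243 CPM (SD, n = 3; log2 fold change 1.30, edgeR adjusted p = 0.00589). *Slc27a3* fell from 5.80 ± 0.660 to 1.85 ± 0.690 CPM (log2 fold change -1.65, edgeR adjusted p = 0.00667), and *Slc27a6* was at -1.03 (edgeR adjusted p = 0.077). Within each library, *Slc27a1* made up 4.99% ± 1.23 of all SLC27 counts in SHMT2 fl/fl livers against 1.13% ± 0.273 in SHMT2 HKO livers, and *Slc27a2* 66.1% ± 1.89 against 64.2% ± 5.31 (SD, n = 3). The share of *Slc27a1* did not overlap between genotypes (p = 0.1, exact permutation test) and that of *Slc27a2* did (exact permutation test, p = 0.6). The log2 ratio of *Slc27a1* to *Slc27a2*, which no library scaling can move, averaged -3.75 ± 0.36 in SHMT2 fl/fl livers against -5.85 ± 0.40 in SHMT2 HKO livers (SD, n = 3; exact permutation test, p = 0.1, adjusted over the 10 ratios 0.2). That of *Slc27a4* to *Slc27a2* overlapped between genotypes, with a difference of -0.49 (exact permutation test, p = 0.2).

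**Figure D2:**
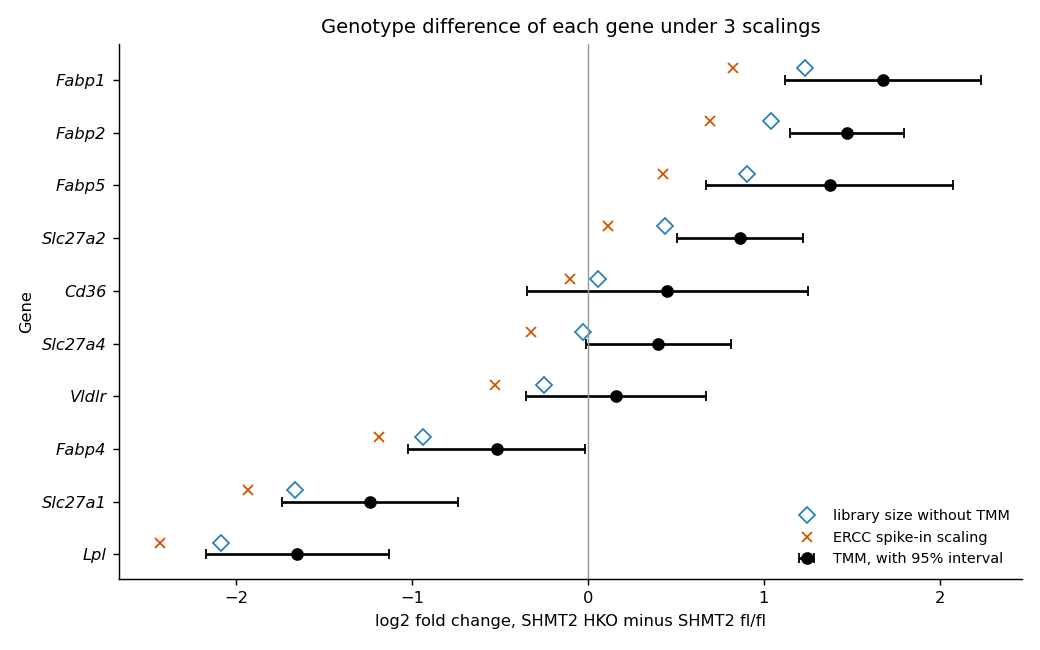
Genotype difference of each gene as log2 fold change, SHMT2 HKO minus SHMT2 fl/fl, with TMM scaling (black points with 95% intervals), with scaling to the ERCC spike-in RNAs (orange crosses) and on plain library size (blue diamonds). *Lpl* and *Slc27a1* lie left of 0 under all 3, as does *Fabp4*, which was called only on plain library size. *Fabp1*, *Fabp2*, *Fabp5* and *Slc27a2* lie right of 0 under all 3 though not called with ERCC scaling. *Cd36*, *Slc27a4* and *Vldlr* change side.

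Long-chain acyl-CoA synthetases trap fatty acids after entry, and 3 of the 4 tested rose and none fell, with a median log2 fold change of 0.70. The shares over all genes tested were 12.5% higher and 16.5% lower. *Acsl1*, the main isoform of hepatocytes, had a log2 fold change of 1.37 (SE 0.24, edgeR adjusted p = 0.00565), *Acsl5* 0.90 (SE 0.24, edgeR adjusted p = 0.0256) and *Acsl3* 0.49 (SE 0.15, edgeR adjusted p = 0.0384). None of the 3 was called with ERCC scaling, where *Acsl3* turned to -0.27, and *Acsl5* and *Acsl3* lost the call without any single SHMT2 fl/fl replicate or SHMT2 HKO replicate 2 (edgeR adjusted p up to 0.0935 and 0.133). *Acsl4*, which prefers arachidonate, was at -0.33 (edgeR adjusted p = 0.238, and 0.0352 without SHMT2 HKO replicate 3).

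Among the FABPs, *Fabp1* encodes the liver isoform, the dominant fatty acid-binding protein of hepatocytes and a classical PPARα target. *Fabp1* (chr6:71199827-71205023, plus strand) stood at 1027, 876 and 1232 CPM in SHMT2 fl/fl and at 4207, 3329 and 2501 CPM in SHMT2 HKO. The lowest SHMT2 HKO liver was far above the highest SHMT2 fl/fl liver, and SHMT2 HKO replicate 1 was the highest of all. The level rose 3.20-fold (log2 fold change 1.68, SE 0.24, edgeR adjusted p = 0.00269), with 1.48 (edgeR adjusted p = 0.00199) when replicate 1 of SHMT2 HKO was left out and 0.83 (edgeR adjusted p = 0.143) with ERCC scaling, which is 1.52 above the median gene of that scaling.

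*Fabp2*, the intestinal isoform, which is also present in liver at a lower level, moved in the same direction. *Fabp2* (chr3:122895072-122899506, plus strand) stood at 69.3, 64.7 and 77.5 CPM in SHMT2 fl/fl and at 213, 205 and 170 CPM in SHMT2 HKO. The spread within each genotype was small beside the gap between them. It rose 2.78-fold (log2 fold change 1.47, SE 0.14, edgeR adjusted p = 0.000871; 1.41 and 0.000663 without SHMT2 HKO replicate 1), and it was not called with ERCC scaling (log2 fold change 0.69, edgeR adjusted p = 0.317). The enterocyte markers *Sis*, *Lct* and *Alpi* were at or near 0 in every library, at most 0.0261 CPM. *Vil1*, which cholangiocytes also express, stood at 8.88, 5.57 and 3.21 CPM in SHMT2 fl/fl. It was below 1 CPM in all SHMT2 HKO livers and was called lower (edgeR adjusted p = 0.00217).

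The sequences before the starts of *Fabp1* and *Fabp2* are shown because these 2 genes rose together and nuclear receptors of the PPAR family bind a direct repeat of the core motif AGGNCA with 1 base between the copies. RefSeq promoter windows of 300 bases on GRCm38.p6 were at hand for 7 of the 10 genes and not for *Fabp4*, *Fabp5* and *Lpl*. The repeat AGGNCANAGGNCA, searched on both strands, was present in 125 of 32851 windows (0.381%), and *Fabp1* alone of the 7 genes held it. The core motif by itself, which the repeat contains, was in 57.2% of windows. The match in *Fabp1* is TGACCTATGGCCT, read on the gene's strand and thus a repeat on the reverse strand, at positions -67 to -55 from the RefSeq start (chr6:71199812-71199824). Capitals mark it in the sequence below, which ends before the start of the annotated gene, and the *Fabp2* window had no match. A match is only a description of the letters.
Fabp1, chr6:71199629-71199826, plus strand: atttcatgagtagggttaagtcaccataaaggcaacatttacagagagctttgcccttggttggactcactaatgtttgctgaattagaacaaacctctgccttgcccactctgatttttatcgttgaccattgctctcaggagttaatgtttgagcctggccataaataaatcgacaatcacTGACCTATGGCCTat
Fabp2, chr3:122894822-122895071, plus strand: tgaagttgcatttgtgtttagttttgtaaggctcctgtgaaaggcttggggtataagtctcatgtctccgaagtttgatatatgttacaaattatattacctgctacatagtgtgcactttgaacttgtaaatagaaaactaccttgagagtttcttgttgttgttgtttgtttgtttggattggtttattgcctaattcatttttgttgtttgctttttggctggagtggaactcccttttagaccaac

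*Fabp5*, the epidermal isoform found in macrophages, endothelium and stressed hepatocytes, stood at 24.9, 20.2 and 21.9 CPM in SHMT2 fl/fl and at 81.6, 61.1 and 31.7 CPM in SHMT2 HKO. The SHMT2 HKO livers spread widely but all lay above the SHMT2 fl/fl livers. It rose 2.60-fold (log2 fold change 1.38, SE 0.30, edgeR adjusted p = 0.0134), with 1.05 (edgeR adjusted p = 0.0144) without SHMT2 HKO replicate 1. The call was lost without SHMT2 fl/fl replicate 2 (edgeR adjusted p = 0.0604), without SHMT2 fl/fl replicate 3 (edgeR adjusted p = 0.0548), with no filter on low counts (edgeR adjusted p = 0.0681) and with ERCC scaling (log2 fold change 0.43, edgeR adjusted p = 0.545). *Fabp5* has 5 near-identical pseudogene copies elsewhere in the genome, and counts assigned to them came to at most 0.555% of its own.

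*Fabp4*, the adipocyte and macrophage isoform, also made by capillary endothelium, stood at 67.9, 62.1 and 45.6 CPM in SHMT2 fl/fl and at 47.6, 28.9 and 45.9 CPM in SHMT2 HKO. SHMT2 HKO replicate 2 was the lowest liver, and the other two overlapped the lowest SHMT2 fl/fl liver. Its log2 fold change was -0.52 with a 95% interval from -1.02 to -0.02, which did not pass after adjustment (edgeR adjusted p = 0.112). On plain library size it was -0.94 and passed (edgeR adjusted p = 0.0275), and without SHMT2 HKO replicate 1 it was -0.64 (edgeR adjusted p = 0.0674). The adipocyte markers summed to 1.15 to 2.93 CPM in SHMT2 fl/fl and 11.0 to 99.2 CPM in SHMT2 HKO, most of it *Cfd*, which stood at 91.1, 62.2 and 10.9 CPM in the SHMT2 HKO livers. *Lep* was at 0 in the other 5 libraries and 0.297 CPM in SHMT2 HKO replicate 1, the liver with *Adipoq*. *Fabp4* in that liver, at 47.6 CPM, was the highest of the SHMT2 HKO livers and lay within the SHMT2 fl/fl range. The part of adipocytes in its level was not tested. The log2 ratio of *Fabp4* to the endothelial gene *Pecam1* differed by -0.29 between genotypes and overlapped (exact permutation test, two-sided, p = 0.6). The 7 endothelial markers summed to 239 to 266 CPM in SHMT2 fl/fl and 302 to 391 CPM in SHMT2 HKO, where *Stab2* and *Clec4g* rose and none fell, and their part in the *Fabp4* and *Fabp5* levels was not tested.

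The share of the liver isoform in the FABP counts was higher in every SHMT2 HKO liver. Of the summed counts of the 4 FABP genes, *Fabp1* held 86.4%, 85.6% and 89.5% in SHMT2 fl/fl and 92.5%, 91.9% and 91.0% in SHMT2 HKO. The shares did not overlap, with means of 87.2% ± 2.04 and 91.8% ± 0.743 (SD, n = 3; p = 0.1 by the same exact permutation test). Per kb of exon, the means were 95.3% ± 0.518 and 96.3% ± 0.453. There the groups barely separated, with replicate 3 at 95.84% in SHMT2 fl/fl and at 95.87% in SHMT2 HKO. The shares that follow are again of the summed counts, not divided by length. *Fabp4* held 5.03% ± 1.501 and 1.17% ± 0.451 (SD, n = 3; exact permutation test, p = 0.1). *Fabp2* held 5.93% ± 0.357 and 5.51% ± 0.758, and *Fabp5* 1.89% ± 0.263 and 1.54% ± 0.343, with overlap in both (exact permutation tests, p = 0.5 and 0.3). Against *Fabp1* within a library, the log2 ratios of *Fabp4* (difference -2.20) and *Cd36* (-1.35) lay wholly lower in SHMT2 HKO (exact permutation tests, p = 0.1 each and 0.2 adjusted over the 10 ratios). Those of *Fabp2* (-0.19) and *Fabp5* (-0.38) overlapped (exact permutation tests, p = 0.3 each). Of the FABP genes outside the 10, *Fabp7* rose from 1.24 ± 0.665 to 5.26 ± 1.55 CPM (SD, n = 3; log2 fold change 2.07, edgeR adjusted p = 0.0079). *Fabp3* ran from 0.0506 to 3.18 CPM in SHMT2 HKO, its log2 fold change of 0.54 was not called (edgeR adjusted p = 0.692), and its sign turned with ERCC scaling and with limma-voom. *Fabp6*, *Fabp9*, *Fabp12* and *Pmp2* had too few counts to test.

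**Figure D3:**
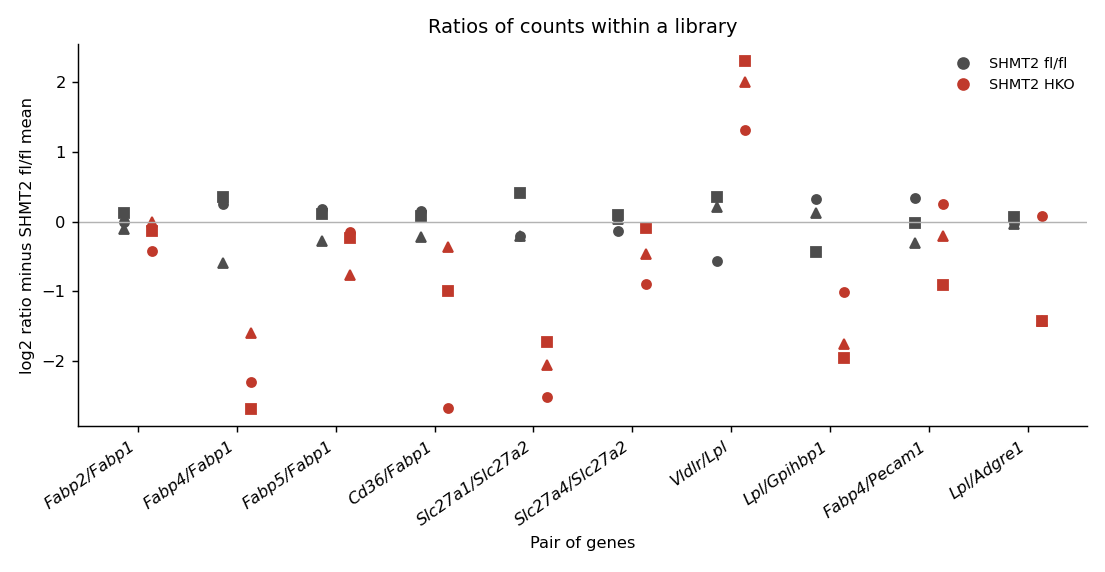
Log2 ratio of the counts of 2 genes within each library, minus the SHMT2 fl/fl mean of that ratio, for 10 pairs; grey points are SHMT2 fl/fl and red points SHMT2 HKO, with circle, square and triangle for replicates 1, 2 and 3. *Fabp4*/*Fabp1*, *Cd36*/*Fabp1*, *Slc27a1*/*Slc27a2* and *Lpl*/*Gpihbp1* lie wholly lower and *Vldlr*/*Lpl* wholly higher in SHMT2 HKO, and the other 5 pairs overlap.

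To compare levels between genes, CPM were divided by the kilobases (kb) of each gene's exons. In SHMT2 fl/fl livers the order ran from *Fabp1* at 1890 CPM per kb through *Slc27a2* at 245, *Fabp2* at 73.1, *Cd36* at 37.4 and *Lpl* at 21.3 to *Fabp4* at 13.0, *Slc27a1* at 11.9, *Slc27a4* at 11.5, *Fabp5* at 6.27 and *Vldlr* at 0.431. Neighbours did not overlap over replicates except *Fabp4* with *Slc27a1* and *Slc27a1* with *Slc27a4*. In SHMT2 HKO livers *Fabp1* reached 6050 CPM per kb, *Slc27a2* 446, *Fabp2* 203 and *Cd36* 51.2, so the first 4 places were the same on this length. *Fabp5* at 16.3 and *Slc27a4* at 15.1 overlapped each other and stood in the fifth and sixth places, followed by *Fabp4* at 9.09, *Lpl* at 6.78, *Slc27a1* at 5.04 and *Vldlr* at 0.481, where *Lpl* overlapped both *Fabp4* and *Slc27a1*. *Lpl* moved from the fifth to the eighth place and *Fabp5* from the ninth to the fifth. The place of *Fabp5* is not firm, since its SHMT2 HKO values ran from 8.88 to 22.9 CPM per kb. They also overlapped those of *Fabp4* (6.43 to 10.6) and *Lpl* (5.02 to 9.03). The order depends on the length used. Per kb of the longest protein-coding transcript, *Fabp4* had 65.3 CPM per kb in SHMT2 fl/fl and took the fourth place, *Lpl* had 54.3, *Slc27a1* 24.8 and *Fabp5* 22.7. On that length *Fabp5* held the fourth place in SHMT2 HKO, *Cd36* went from the sixth to the fifth and *Lpl* from the fifth to the seventh, while the first 3 places were again *Fabp1*, *Slc27a2* and *Fabp2*.

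**Figure D4:**
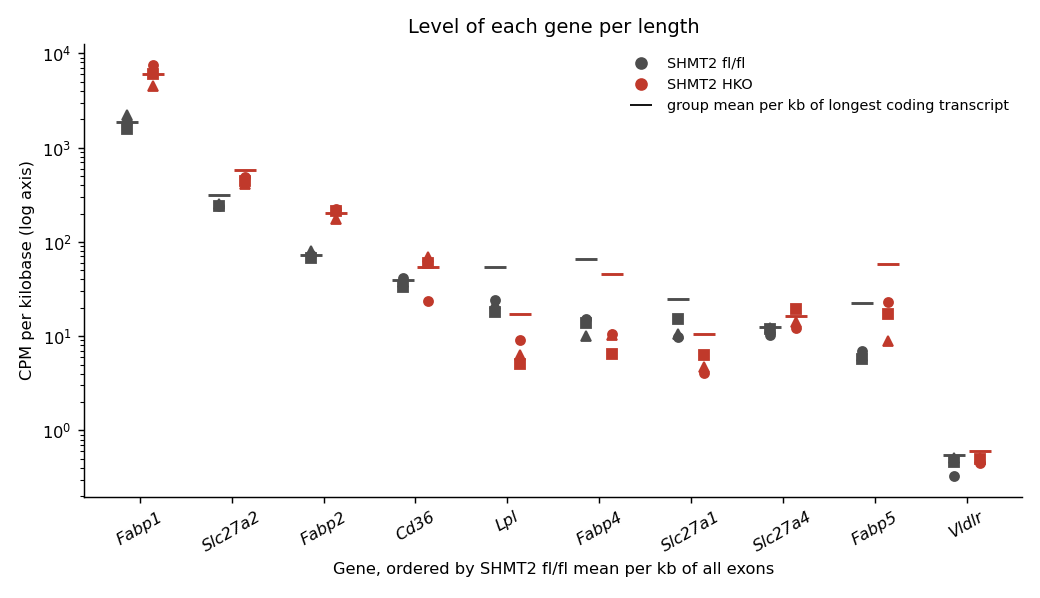
Level of each gene per length, in CPM per kilobase on a log axis, with SHMT2 fl/fl livers in grey and SHMT2 HKO livers in red; points are livers per kb of all exons and dashes are group means per kb of the longest protein-coding transcript. *Fabp1* is the highest and *Vldlr* the lowest gene in both genotypes, and dashes lie well above the points for *Fabp4*, *Fabp5*, *Lpl* and *Slc27a1*.

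The wider pathway was described with 9 lists of related genes, 55 genes in all, chosen with earlier results of these data known. Of the 50 tested, 21 rose and 2 fell, against 12.5% and 16.5% of all genes tested, and their median log2 fold change was 0.66. With ERCC scaling the median of these genes was -0.10, and of the genes called with TMM only *Cidea*, *Slc27a3* and *Sort1* were still called. On plain library size 12 of the 21 raised genes lost the call, among them *Acsl3*, *Acsl5*, *Plin2*, *Mogat1*, *Dbi*, *Scp2* and *Acbd4*. Among lipoprotein receptors and their regulators, the sorting receptor *Sort1* alone of the 6 described passed the test and fell, with a log2 fold change of -0.92 (edgeR adjusted p = 0.0241). Of the 3 other lipases and lipid transfer proteins of plasma, *Lipc*, which encodes hepatic lipase, rose from 59.1 ± 8.19 to 128 ± 12.5 CPM (SD, n = 3; log2 fold change 1.12, edgeR adjusted p = 0.00175). *Lipc* thus rose where *Lpl* fell on the TMM scale, and with ERCC scaling *Lipc* was at 0.35 and not called. Among acyl-CoA and sterol binding proteins, 3 of 5 rose, *Dbi* (0.78), *Scp2* (0.87) and *Acbd4* (0.65), with *Dbi* and *Acbd4* just under 0 on ERCC scaling. Leaving out single samples took the call from *Sort1* (any SHMT2 fl/fl replicate), *Scp2* (SHMT2 fl/fl replicate 2 or 3) and *Dbi* (any SHMT2 fl/fl replicate or SHMT2 HKO replicate 2), with edgeR adjusted p up to 0.0827, 0.0602 and 0.0953.

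Nuclear receptors known to act on these genes had 4 of 10 members higher and none lower, with a median of 0.43. Among all genes tested, 12.5% were called higher and 16.5% lower. *Ppara*, the fasting receptor that controls *Fabp1*, rose from 45.3 ± 7.83 to 97.0 ± 16.1 CPM (SD, n = 3; log2 fold change 1.10, edgeR adjusted p = 0.00369). *Pparg*, the fat-storage receptor that controls *Cd36* and *Fabp4* in adipocytes, rose from 18.7 ± 3.36 to 34.3 ± 4.96 CPM (log2 fold change 0.88, edgeR adjusted p = 0.00725). *Nr1h3* (LXRα) had 0.73 and *Nr1i3* (CAR) 1.77. With ERCC scaling none of the 4 was called and *Nr1h3* was at -0.07, and *Nr1h3* also lost the call without SHMT2 fl/fl replicate 1 (edgeR adjusted p = 0.0554). On plain library size *Pparg* (0.47, edgeR adjusted p = 0.142) and *Nr1h3* (0.29, edgeR adjusted p = 0.096) were not called.

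Of 8 genes listed as PPARG targets of the fatty liver, 4 rose and none fell, with a median log2 fold change of 0.85. Calls over all genes tested were 12.5% higher and 16.5% lower. Which receptor acts on the listed genes in these livers was not tested. *Cidea*, a lipid droplet gene of brown fat and steatotic liver, stood at 2.42, 2.71 and 2.09 CPM in SHMT2 fl/fl and at 26.6, 67.8 and 43.6 CPM in SHMT2 HKO (log2 fold change 4.26, SE 0.35, edgeR adjusted p = 0.000763). *Mogat1* had 1.96, *G0s2* 1.56 and *Plin2* 0.83. *Mogat1* lost the call without any single SHMT2 fl/fl replicate or SHMT2 HKO replicate 2 (edgeR adjusted p up to 0.101), and *Plin2* without SHMT2 fl/fl replicate 2 or 3 or SHMT2 HKO replicate 2 (up to 0.0785). The other 4, *Cidec*, *Plin4*, *Plin5* and *Acaa1b*, followed the pattern of *Cd36*, with replicates 2 and 3 of SHMT2 HKO above every SHMT2 fl/fl liver and replicate 1 not. *Cidec*, for example, stood at 108, 135 and 127 CPM in SHMT2 fl/fl and at 103, 214 and 357 CPM in SHMT2 HKO, and did not pass the test with all 6 libraries (log2 fold change 0.87, edgeR adjusted p = 0.133). It passed without SHMT2 HKO replicate 1 (1.22, edgeR adjusted p = 0.00421) and, with all 6 libraries, in DESeq2 (0.88, DESeq2 adjusted p = 0.0466). The pattern was seen in 10 of the 50 tested genes of the 9 lists, which were chosen with earlier results known, and in 4.86% of all genes tested. Some margins were small. SHMT2 HKO replicate 2 stood at 103 CPM for *Plin5* and 59.7 CPM for *Plin4*, against 100 and 55.8 CPM in the highest SHMT2 fl/fl liver. *Fabp1*, *Fabp2*, *Fabp5* and *Slc27a2* instead had replicate 1 as the highest SHMT2 HKO liver.

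**Figure D5:**
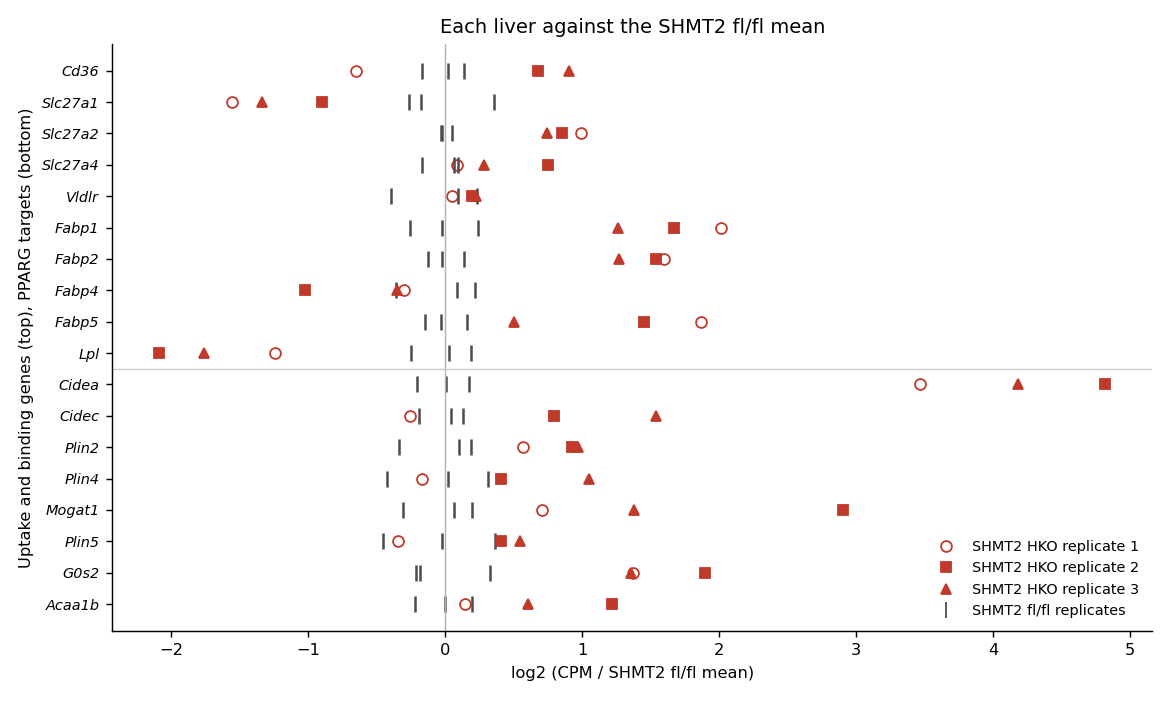
Each liver's CPM relative to the SHMT2 fl/fl mean, as log2, for the 10 genes (top) and 8 genes listed as PPARG targets of the fatty liver (bottom). Grey ticks are SHMT2 fl/fl replicates and red circles, squares and triangles SHMT2 HKO replicates 1, 2 and 3. The open circle of replicate 1 lies at or below the SHMT2 fl/fl ticks for *Cd36* and *Cidec* and is the furthest right for *Fabp1*, *Fabp2*, *Fabp5* and *Slc27a2*.

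The remaining marker lists describe the tissue. The 6 hepatocyte markers summed to 50467 to 62067 CPM in SHMT2 fl/fl and 63813 to 93741 CPM in SHMT2 HKO. *Apob* and *Ttr* were called higher and none lower. *Alb* was the most abundant of them in every library. It overlapped between genotypes and was not called (log2 fold change 0.56, edgeR adjusted p = 0.132). The 4 cholangiocyte markers summed to 128 to 237 CPM and 22.7 to 29.9 CPM and all 4 fell. The 4 T and B cell markers summed to 7.93 to 9.59 CPM and 1.82 to 2.68 CPM with 2 lower, the enterocyte list to 3.26 to 8.88 CPM and 0.594 to 0.787 CPM with *Vil1* lower, and the 4 muscle markers to 2.14 to 2.90 CPM and 1.02 to 4.30 CPM with none called. The higher hepatocyte marker sum accompanied the rise of *Fabp1*, *Fabp2* and *Slc27a2*, and its part in those levels was not tested.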

How the data were processed

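The deposited values are raw counts per gene, which the authors obtained by trimming reads with Trimmomatic 0.36, aligning them with STAR 2.5.2b to GRCm38 (mm10) with the ERCC sequences and counting unique hits (featureCounts of Subread 1.5.2, per the submitters' processing notes). The strand setting and the handling of reads over overlapping genes are not given in the sources used here. The labels WT and KO stand for SHMT2 fl/fl and SHMT2 HKO here, after the study's text. The 92 ERCC entries, 1.35% to 2.75% of all counts, entered neither the library sizes nor the tests.

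Gene symbols, coordinates and lengths came from GENCODE M21 (GRCm38); 259 gene IDs without an entry held 0.0116% of gene counts. Low genes were removed with filterByExpr, and the rest were scaled by TMM (factors 1.13 to 1.21 in SHMT2 fl/fl, 0.802 to 0.984 in SHMT2 HKO) and compared by edgeR 4.0.16 (R 4.3.3, glmQLFit with robust dispersions, two-sided) with Benjamini-Hochberg adjustment over 16089 genes. Ratios of counts (0.5 added) and shares were compared by exact permutation tests over the 6 samples (SciPy 1.17.1). Near-identical copies (at least 90% identity over 200 bp) were searched with BLAST 2.17.0. Alternatives were DESeq2 1.42.0, limma-voom (limma 3.58.1), ERCC scaling, library size without TMM, upper-quartile scaling, other filters, dispersions without robust estimation, a replicate block and leaving out each sample; the length of the longest protein-coding transcript was added after seeing the data. The code was tested on simulated data.

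The genes, the gene and marker lists and the ratio pairs were chosen with earlier results of these data known, so they are no independent support for a pattern. Named genes are the 10 genes, *Shmt2*, list members that passed the test or whose role bears on one of the 10, and the markers. *Gm26697*, and *Cidec*, *Plin4*, *Plin5* and *Acaa1b* among list members that did not pass, were named after their values were seen. Lists are described by counts and medians only, and some of their genes are not reported here and were left out of these counts. The floor of 3 counts covers counting error only.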

Additional observations from a re-analysis of the deposited data

How the results depend on the processing

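Over 15 alternatives for each of the 10 genes, 134 of 150 values kept their direction and side of the threshold, 7 lost a call, 3 gained one and 6 reversed. The reversals were *Cd36* (-0.10), *Slc27a4* (-0.33) and *Vldlr* (-0.53) with ERCC scaling, *Slc27a4* (-0.029) and *Vldlr* (-0.25) without TMM, and *Vldlr* without SHMT2 fl/fl replicate 1 (-0.0041, and up to 0.29 without single samples). With ERCC scaling 2866 of the 16089 genes were called in place of 4663 and 0 of the 10 were higher, where edgeR's test called 2 of them lower; the split of calls was 107 higher and 2759 lower, against 2012 and 2651 with TMM, 1461 and 3039 with upper-quartile scaling and 539 and 4923 without TMM, which moved the median gene by -0.42. The spread of the ERCC share within a genotype limits that scaling, and the cause of the difference was not tested. Leaving out single samples gave 2426 to 5597 called genes, 3 to 6 of the 10 higher (6 without SHMT2 HKO replicate 1, adding *Cd36* and *Slc27a4*), 2 lower throughout, a *Shmt2* log2 fold change of -2.16 to -1.92 and an FABP composition difference (the share of *Fabp1*) of 3.86 to 5.78 percentage points (4.62 with all samples). Per kilobase of exon the share difference was 1.003. Deviations of same-numbered samples from their group means were nearly uncorrelated (-0.0459, 0.0125 and -0.0766), and those of the other pairs ran from -0.0239 to 0.0808. With 3 samples per group this cannot exclude a shared litter or processing day, which the labels do not state. A fit with a replicate block called 3584 genes and changed no call among the 10. Among related genes, 17 of 464 values reversed: with ERCC scaling *Fabp3* (-0.42), *Acsl3* (-0.27), *Sel1l* (-0.033), *Angptl8* (-0.83), *Apoc2* (-0.22), *Nr1h3* (-0.072), *Dbi* (-0.022) and *Acbd4* (-0.13); *Fabp3* with limma-voom (-0.54), the replicate block (-0.15) and without SHMT2 HKO replicate 1 (-1.05, and up to 1.09 without other single samples); *Angptl8* with 10 counts in every sample (-0.0058), without TMM (-0.42), with limma-voom (-0.057), the replicate block (-0.031), upper-quartile scaling (-0.051) and without SHMT2 HKO replicate 2 (-0.27, and up to 0.27 without other single samples). The log2 ratio of *Fabp4* to *Pecam1* lay between -0.559 and 0.0238 when single samples were left out, the upper value without SHMT2 HKO replicate 2.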
